A study of Oryza sativa Japonica Group with 20 samples.

Results

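The genes rab21 (feature AK121952) and dip1 (feature AK070197) were used in this study as markers of water deficit, and they are described here in roots and leaves over 12 h of dehydration. They are 2 of the 27,609 gene features on the array and were taken by identifier because the study names them as markers, not because of their values. Seedlings of the japonica rice cultivar Nakdong, non-transgenic and 14 days old, were taken out of soil, kept in water for 1 day and dried in air at 32°C, 50% humidity and continuous light, with the roots wrapped in tissue and foil. Roots and leaves were collected after 0, 0.5, 2, 6 and 12 h. All groups share the removal from soil and the day in water, and none of the samples used here is of seedlings kept in water to the later times, so the duration of drying and the time since 0 h cannot be told apart. Each of the 10 groups has 2 biological replicates, each on its own Cy3 array of 3′ probes. As whole organs were used, a change in RNA per cell and a change in the make-up of cells cannot be told apart.

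Dehydrins are hydrophilic proteins of the late embryogenesis abundant class, which build up in drying seeds and in vegetative tissues that lose water. They stay largely unfolded and are thought to shield membranes and other proteins as cells dry. The hormone abscisic acid (ABA) switches on many of their genes, and the name rab stands for responsive to ABA. In the RefSeq table of the rice assembly ASM3414082v1, RAB21 is the name of a gene on chromosome 11 whose near neighbours include the related genes RAB16B and RAB16C, and Dip1 is listed as another name of the dehydrin gene Dhn1 (also LIP9) on chromosome 2. The names were matched through those the study gives, since none of the feature identifiers is in that table. Each feature summarises 10 probe pairs. Whether the probes of AK121952 tell rab21 from the related RAB16 genes was not tested.

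Values are intensities that the authors summarised by RMA, on a linear scale on which the brightest gene feature of an array read 63,105 to 65,131. Both markers lay far above background on every array, with rab21 at least 39.1 times and dip1 at least 55.8 times the feature of random sequences. Array medians ranged from 1954 to 2743. On leaf 0.5 h replicate 1 and root 0.5 h replicate 2 the feature of random sequences was raised, at 362 and 340, against 115 to 228 on the other 18 arrays, so steps and differences that include 0.5 h are also given without these arrays. The tissue labels were checked with 7 photosynthesis genes, namely rbcS of Rubisco and CB1 to CB6 of the light-harvesting complexes. At 0 h these read 84 to 1415 in root and 16,165 to 58,566 in leaf, and for each gene both root arrays lay below both leaf arrays. No marker of root tissue could be named from the files.

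The intensity of rab21 rose in both tissues to near the top of the scale. In root the arrays read 9282 and 7446 (0 h), 10,984 and 13,304 (0.5 h), 32,186 and 48,185 (2 h), 49,171 and 52,489 (6 h), and 49,169 and 56,465 (12 h). In leaf they read 11,038 and 8435 (0 h), 14,492 and 9262 (0.5 h), 21,739 and 23,853 (2 h), 46,026 and 44,502 (6 h), and 50,970 and 57,281 (12 h). Both root arrays of every later time lay above both root arrays of 0 h. In leaf this held from 2 h on, while the arrays of 0.5 h overlapped those of 0 h. On the log2 scale, root at 2 h stood at 84.2% of its whole change over 12 h, and leaf at 2 h stood at 49.8%. The 2 root arrays of 2 h lay 0.58 apart on this scale. The difference between the tissues in the change at 2 h did not pass the interaction test given further below.

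**Figure D1:**
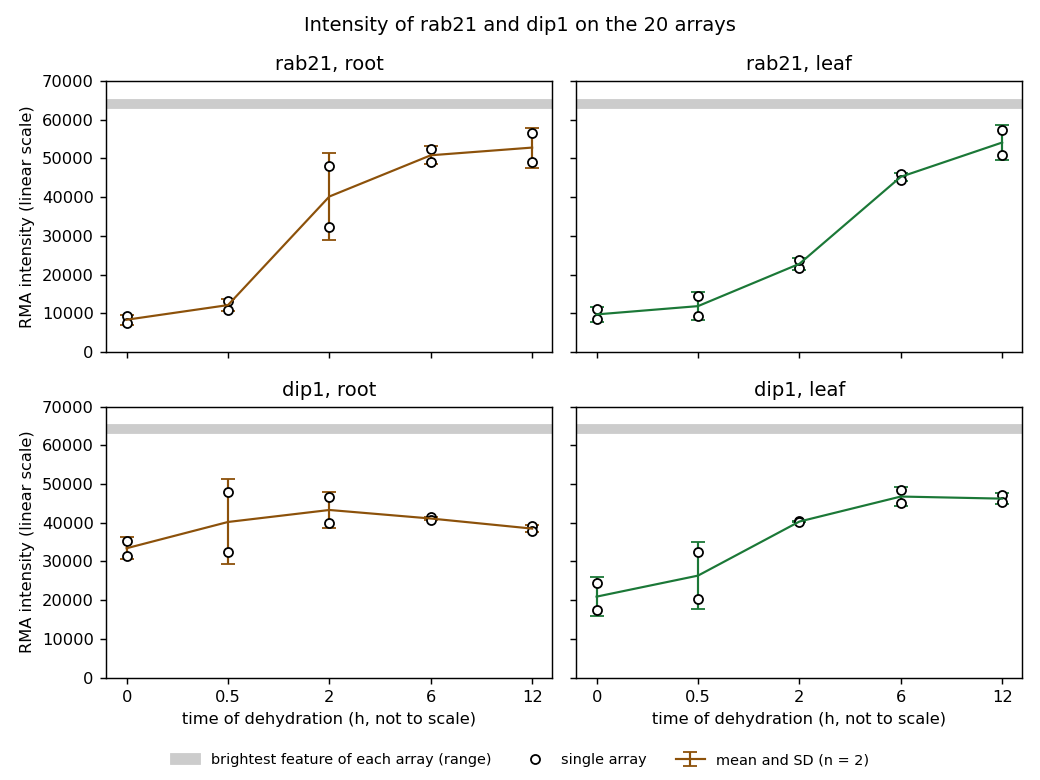
Intensity (RMA, linear scale) of rab21 and dip1 in root (left) and leaf (right) against time of dehydration in h. Open circles are single arrays, lines and bars are the mean and SD of 2 arrays, and the grey band is the range of the brightest feature over the 20 arrays, 63,105 to 65,131. rab21 stands near the band from 6 h on in both tissues, and dip1 in root stands at 33,399 at 0 h already.

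The marker dip1 was bright in both tissues at all times. In root it read 35,397 and 31,401 (0 h), 47,946 and 32,419 (0.5 h), 39,925 and 46,634 (2 h), 41,392 and 40,760 (6 h), and 39,134 and 37,806 (12 h). In leaf it read 17,326 and 24,480 (0 h), 20,232 and 32,429 (0.5 h), 40,463 and 40,120 (2 h), 45,004 and 48,495 (6 h), and 47,156 and 45,262 (12 h). The root arrays of 2, 6 and 12 h all lay above those of 0 h, by at most 1.29-fold in the group means on the log2 scale, and those of 12 h lay below those of 6 h. The leaf arrays of 2, 6 and 12 h also lay above those of 0 h, by 1.96-fold or more in the group means.

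The steps between successive times were compared by limma, with a step called where the adjusted p fell below 0.05 and the log2 difference passed 1. For rab21, 1 of 8 steps was called, that of root at 2 h against 0.5 h. Root at 2 h averaged 40,185 ± 11,313 and root at 0.5 h averaged 12,144 ± 1641 (SD, n = 2 each), a 3.26-fold difference (log2 difference 1.70, SE 0.28, adjusted p = 0.00595). Of all features 4.7% were called in this comparison, and 1.69% in that of root at 0.5 h against 0 h. Without the 0.5 h arrays with a raised control feature, which leaves 1 array at 0.5 h in each tissue, the step was 1.84 (adjusted p = 0.0109), and without root 2 h replicate 2 it was 1.41 and no longer called (adjusted p = 0.121). The earlier root step, 0.5 h against 0 h, was 0.54 (95% interval −0.07 to 1.15, adjusted p = 0.234), or 0.40 without the raised arrays. The later root steps of rab21 were 0.37 for 6 h against 2 h (interval −0.24 to 0.98) and 0.05 for 12 h against 6 h (interval −0.56 to 0.66). In these later root comparisons limma called 0% of all features, with 950 and 371 at an unadjusted p under 0.05. On average rab21 lay 0.71 log2 units below the brightest feature of the array in root at 2 h, and 0.35 at 6 h. Both are under the difference of 1 that a call needs, and their part in the missing calls was not tested.

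In leaf limma called none of the 4 steps of rab21, of which those to 2 h and 6 h had an unadjusted p under 0.05. Of all features 0.406% were called at 0.5 h against 0 h and 3.15% at 2 h against 0.5 h. Leaf at 0.5 h averaged 11,877 ± 3698 and leaf at 0 h averaged 9737 ± 1841, a step of 0.26 that turned to −0.06 without leaf 0.5 h replicate 1. The step at 2 h against 0.5 h was 0.97 (95% interval 0.37 to 1.58, adjusted p = 0.0761), and 1.30 without the raised arrays (adjusted p = 0.0537). At 6 h against 2 h the arrays did not overlap, with means of 45,264 ± 1078 and 22,796 ± 1495, and the step was 0.99 (interval 0.38 to 1.60). Its adjusted p was 0.645, in a comparison in which limma called 0% of all features in either direction and 1534 had an unadjusted p under 0.05. Only 254 of the 27,609 features, or 0.92%, had a larger step than rab21 here. The last step, 12 h against 6 h, was 0.26 (interval −0.35 to 0.86), with both arrays of 12 h above both of 6 h. Here too limma called 0% of features, with 1590 at an unadjusted p under 0.05. In leaf at 6 h rab21 lay 0.52 log2 units below the brightest feature on average, also under 1, and its part in the missing call was not tested.

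**Figure D2:**
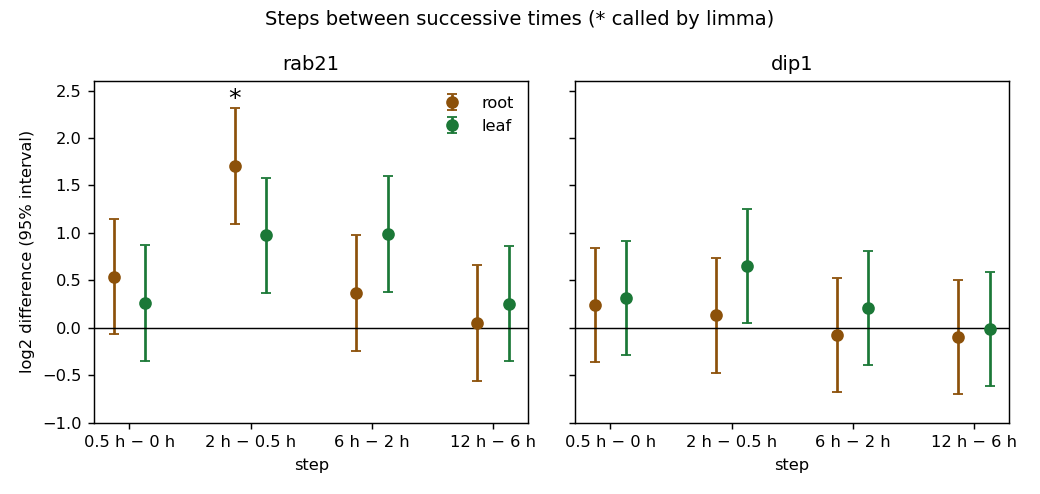
Log2 differences between successive times for rab21 and dip1, with root left of leaf within each step. Points are differences of group means from 2 arrays each, bars are 95% intervals from limma, unadjusted for the number of genes, and the asterisk marks the called step, 1.70 for rab21 in root at 2 h against 0.5 h. In leaf the 2 middle steps of rab21 are of like size, 0.97 and 0.99.

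For dip1, limma called 0 of 8 steps, where the share of all features called ran from 0% to 4.7%, and 1 step had an unadjusted p under 0.05. It was the leaf step at 2 h against 0.5 h, 0.65 (95% interval 0.05 to 1.25, adjusted p = 0.181), with means of 40,292 ± 243 and 26,330 ± 8625. The wide spread at 0.5 h came from arrays at 20,232 and 32,429, of which the lower is the array with a raised control feature. Without the raised arrays this step was 0.31, and the step before it, 0.5 h against 0 h, was 0.66 in place of 0.31. The order of the first 2 leaf steps of dip1 thus changes without that array. In root the steps were 0.24, 0.13, −0.07 and −0.09 from the first to the last, and every interval held 0. The first of them was 0.52 without the raised arrays, and the second −0.15. A call as a rise needed a log2 difference above 1. The mean log2 distance of dip1 to the brightest feature of the array was 0.96, 0.70, 0.57 and 0.66 in root at 0, 0.5, 2 and 6 h. In leaf it was 0.68 at 2 h and 0.47 at 6 h. Of all features limma called 0% for 6 h against 2 h and for 12 h against 6 h, in both tissues. A missing call alone does not show that dip1 was flat, and the part of these distances in the missing calls was not tested.

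The median step of all features was −0.30 in root and −0.18 in leaf at 0.5 h against 0 h, and 0.15 in root and 0.27 in leaf at 2 h against 0.5 h. Without the raised arrays, which leaves 1 array at 0.5 h in each tissue, these medians were −0.11, −0.04, 0.009 and 0.16 in the same order. With each array centred on its median, the called step of rab21 in root was 1.55 (adjusted p = 0.0179). The corresponding leaf step was 0.74 and the first steps of rab21 were 0.73 in root and 0.52 in leaf, with no change of call. For dip1 centring gave 0.57 and then 0.42 for the first 2 leaf steps, which also turns their order, and 0.44 and then −0.03 in root. Whether the fall of the medians at 0.5 h lies in the tissue or in the arrays was not tested.

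Against 0 h, rab21 was called higher at 2, 6 and 12 h in both tissues. Its fold changes were 4.74, 6.11 and 6.34 in root (adjusted p = 0.000712, 0.000196 and 8.80e-05) and 2.36, 4.69 and 5.60 in leaf (adjusted p = 0.0172, 0.000497 and 0.000159). The share of all features called higher at these times was 1.67%, 2.19% and 3.31% in root and 8.32%, 5.72% and 5.53% in leaf. By size, 232, 168 and 206 features had a larger change than rab21 in root, and 4033, 849 and 457 in leaf. Its change at 2 h thus ranked within the first 0.84% of features in root and within the first 14.6% in leaf. The leaf background at 2 h depended on the setting. Features called higher there numbered 2296, but 912 without the dimmest 25% of features and 246 with only the 10 leaf arrays. In root the numbers were 460, then 474 without the dim features and 490 with only the 10 root arrays. The ranks were not taken again without the dim features. The marker dip1 was called higher in leaf at 6 and 12 h (fold changes 2.27 and 2.24, adjusted p = 0.0140 and 0.0120). At 2 h its change of 0.97 had an adjusted p of 0.0394 but lay below the threshold of 1. In root its changes were 0.37, 0.30 and 0.21 at 2, 6 and 12 h, with 95% intervals that reached 0.97, 0.90 and 0.81. By semi-quantitative RT-PCR the study reports strong induction of both markers in root and in leaf, an assay not examined here. From its microarray it also states that rab21 was induced by 2 h and dip1 by 0.5 h, and that both stayed so to 12 h. Here the dip1 difference at 0.5 h against 0 h was 0.31 in leaf and 0.24 in root. Neither was called, and in both tissues the arrays of 0.5 h overlapped those of 0 h.

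In the limma fit, leaf rab21 at 2 h lost its call when only leaf arrays were used (adjusted p = 0.0850), and when replicate 2 of leaf at either 0 h or 2 h was dropped (adjusted p = 0.134 in both cases). Leaf dip1 lost its calls at 6 and 12 h when only leaf arrays were used (adjusted p = 0.0657 and 0.0573) and when replicate 1 of 0 h was dropped (0.0978 and 0.111). Dropping replicate 1 or 2 of 6 h gave 0.0584 or 0.102 at 6 h, and dropping replicate 1 or 2 of 12 h gave 0.0692 or 0.0632 at 12 h.

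How near the markers came to the upper end of the scale was measured as the distance to the brightest feature of each array. At 0 h rab21 lay 2.96 ± 0.23 log2 units below it in root and 2.73 ± 0.25 in leaf, at 12.8% of the maximum in root and 15.1% in leaf (geometric means). At 12 h it lay 0.30 ± 0.15 below in root and 0.26 ± 0.11 in leaf, at 81.3% and 83.4% of the maximum. The number of brighter features was 56 and 20 on the root arrays of 12 h, against 4359 and 6030 on those of 0 h. On the leaf arrays it was 36 and 15 at 12 h, against 3106 and 5173 at 0 h. At 12 h no more than 56 features were thus brighter than rab21 on any of the 4 arrays.

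**Figure D3:**
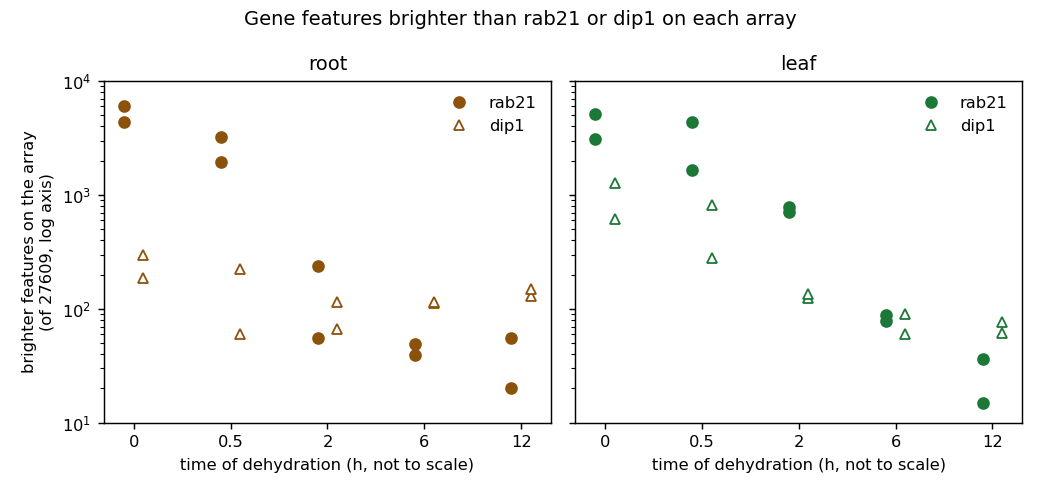
Number of gene features, of 27,609, that were brighter than rab21 (filled circles) or dip1 (open triangles) on each array, on a log axis, against time of dehydration in h, for root (left) and leaf (right). For rab21 the number is between 3106 and 6030 at 0 h and between 15 and 56 at 12 h, while for dip1 in root it is between 60 and 296 at all times.

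At 0 h dip1 lay 0.96 ± 0.13 log2 units below the brightest feature in root and 1.63 ± 0.38 in leaf (SD, n = 2 each), with 186 and 296 brighter features on the root arrays and 1261 and 609 on the leaf arrays. The distance was 0.87 and 1.05 on the root arrays, so that a log2 difference of 1 in root compares with a mean distance of 0.96. Whether the brightest feature marks a limit of the measurement was not tested. At 12 h it lay 0.75 ± 0.03 below in root and 0.49 ± 0.05 in leaf. At no time was either marker the brightest feature. The nearest was rab21 on leaf 12 h replicate 2, at 88.0% of the maximum. Intensities of single probes were not used here, and whether any probe had reached the limit of the scanner was not tested.

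Features at least as bright as the markers at 0 h are described beside them. Such a feature with a larger change than the marker must also end brighter than the marker. At 12 h 56 and 20 features were brighter than rab21 on the root arrays, and 36 and 15 on the leaf arrays. The counts of larger changes thus follow largely from the levels of the marker itself. In root 220 features were at or above the level of dip1, and 2 of them had a larger change than dip1 at 2 h, 3 at 6 h and 7 at 12 h. At each of these times 0 of the 220 were called higher, and their largest changes were 0.459, 0.382 and 0.364. At 12 h 14 of the 220 were called lower. Of the 5041 features at or above the level of rab21 in root, 0 had a larger change than rab21 at 2, 6 or 12 h. At 12 h 35 (0.694%) of these were called higher, rab21 included, and 655 were called lower. Of the 3897 such features in leaf, 11 had a larger change than rab21 at 2 h and 0 at 6 or 12 h. At 12 h 53 (1.36%) were called higher, rab21 included, and 318 lower. Among 811 features at or above dip1 in leaf, 1 had a larger change at 12 h, 3 (0.37%) were called higher, dip1 included, and 55 were called lower. Of all 27,609 features at 12 h, 3.31% were called higher in root and 2998 were called lower. In leaf 5.53% were called higher and 2813 were called lower. The 0 h arrays by which the bright features were chosen also enter their changes, and the counts carry no test.

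Root and leaf were compared directly at each time, a comparison of levels that the study itself makes at 0 h only. Its methods warn that comparing the tissues directly could mislead, since each would respond in its own way. Which arrays were normalized together is not given in the sources used here. For each marker limma called 0 of the 5 differences, where 18.4%, 16.7%, 18.5%, 18% and 13.9% of all features were called at the 5 times in order. At an unadjusted p under 0.05 there was 1 difference for rab21 (2 h) and there were 2 for dip1 (0 and 0.5 h). For rab21 the differences, root minus leaf, were −0.21, 0.06, 0.79, 0.17 and −0.04 on the log2 scale at the 5 times in order. The largest was at 2 h, with means of 40,185 ± 11,313 in root and 22,796 ± 1495 in leaf, a ratio of 1.73 (95% interval 1.13 to 2.64, adjusted p = 0.0670). Both root arrays lay above both leaf arrays at 2 h and at 6 h, where the ratio was 1.12 (interval 0.74 to 1.71). At 0, 0.5 and 12 h the arrays of the tissues overlapped, and at 0.5 h the difference was 0.25 without the raised arrays. At 12 h the interval of the ratio, 0.64 to 1.49, leaves room for a difference in either direction.

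For dip1 the differences, root minus leaf, were 0.69, 0.62, 0.10, −0.19 and −0.26 from 0 to 12 h. At 0 h root averaged 33,399 ± 2826 and leaf 20,903 ± 5059, a ratio of 1.62 (95% interval 1.07 to 2.46, adjusted p = 0.107), and both root arrays lay above both leaf arrays. At 0.5 h the ratio was 1.54 (adjusted p = 0.158), or 0.56 on the log2 scale without the raised arrays, and the arrays overlapped. At 6 and 12 h both root arrays lay below both leaf arrays, with ratios of 0.88 and 0.83 and intervals of 0.58 to 1.33 and 0.55 to 1.26.

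**Figure D4:**
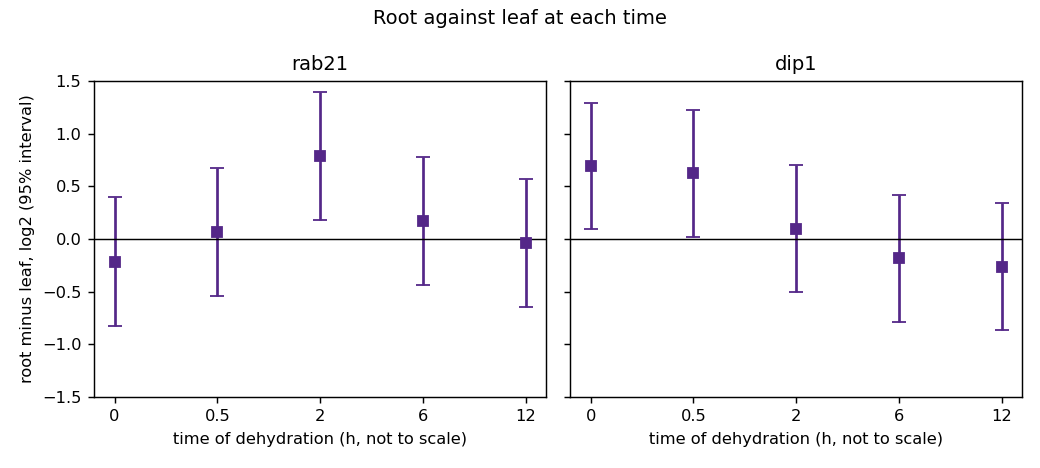
Log2 difference of root minus leaf for rab21 and dip1 at each time of dehydration in h. Squares are differences of group means from 2 arrays each and bars are 95% intervals from limma, unadjusted for the number of genes. For rab21 the value stands highest at 2 h (0.79), and for dip1 it lies above 0 at the first 3 times and below 0 at 6 h and at 12 h (−0.26).

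Whether the change over time differed between the tissues was tested by interaction terms, and limma called 0 of 7 for each marker. Of all features 0.00362%, 0.257%, 0% and 0% were called for the 4 steps from first to last, and 2.28%, 2.94% and 4.52% for the changes at 2, 6 and 12 h. At an unadjusted p under 0.05 there was 1 such difference for rab21, the change at 2 h, and there were 2 for dip1, the changes at 6 and 12 h. The change of rab21 at 2 h was greater in root than in leaf by 1.01 (95% interval 0.14 to 1.87, adjusted p = 0.203), and at 12 h by 0.18 (interval −0.68 to 1.04). By steps, the difference was 0.73 at 2 h against 0.5 h (interval −0.13 to 1.59, adjusted p = 0.556) and −0.62 at 6 h against 2 h (interval −1.48 to 0.24). Without the raised arrays the difference at 2 h against 0.5 h was 0.54. The change of dip1 was smaller in root than in leaf by 0.88 at 6 h (−0.88, interval −1.73 to −0.03, adjusted p = 0.244) and by 0.96 at 12 h (−0.96, interval −1.81 to −0.11, adjusted p = 0.198). The distance of dip1 to the brightest feature at 0 h was also smaller in root, at 0.96 log2 units, against 1.63 in leaf, and its part in the result was not tested.

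In the order of the 10 group means, rab21 was highest in leaf at 12 h (54,125 ± 4463), root at 12 h (52,817 ± 5159) and root at 6 h (50,830 ± 2346), whose arrays overlapped. Leaf at 6 h and root at 2 h followed and overlapped with each other. Leaf at 2 h stood apart from its neighbours on both sides, and the groups of 0.5 h and 0 h came last, each overlapping the next. For dip1 the order was led by leaf at 6 h and 12 h and root at 2 h and 6 h, each overlapping the next. Leaf at 2 h, root at 0.5 h and root at 12 h followed, of which root at 0.5 h (32,419 and 47,946) spanned groups both above and below it, and the order ended with root at 0 h, leaf at 0.5 h and leaf at 0 h, each overlapping the next. Root at 12 h (38,470 ± 939) had both arrays above those of root at 0 h.

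Replicates of the markers were close at the later times. The log2 gap between the 2 arrays of a group was 0.05 for rab21 in leaf at 6 h and 0.01 for dip1 in leaf at 2 h, where the median gap over all features was 0.28 and 0.44. The widest gaps were in leaf at 0.5 h, 0.65 for rab21 and 0.68 for dip1, where the median gap of all features was 0.74. On leaf 0.5 h replicate 1 rab21 was the higher and dip1 the lower of the replicates. The gap of rab21 in root at 2 h was 0.58, wider than the median of 0.26 there.

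The features whose log2 intensities followed rab21 most closely over the 20 arrays were AK110661 (Pearson r = 0.984) and AK071366 (r = 0.983), and 53 features had an r above 0.9. The mean intensity of AK071366 was 27,147 at 12 h and 350 at 0 h in root, and 28,635 at 12 h and 794 at 0 h in leaf. AK110661 was dim, at 76 in root and 88 in leaf at 0 h, below the feature of random sequences on all 4 arrays of 0 h, and at 1503 in root and 1610 in leaf at 12 h. For dip1 the closest were AK065101 and AK065505 (r = 0.944 each), with 28 features above 0.9. By Spearman's rho these were 0.841 and 0.716, and the features ranked 13 and 260 in likeness to dip1. The likeness between rab21 and dip1 themselves was lower, with r = 0.626, and dip1 ranked 1346 among the features in likeness to rab21. The arrays share tissues and times, so these values describe a common course over 10 groups and carry no test. No gene name was at hand for these identifiers.

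Of 15 rice genes of the ABA and dehydration response that were listed by locus, among them LIP9, which RefSeq gives as another name of dip1, 1 was found under its locus identifier. It is NCED3 (Os03g0645900), which encodes an epoxycarotenoid dioxygenase, the enzyme of the key step of ABA synthesis. In root NCED3 read 4328 and 2675 (0 h), 5765 and 8407 (0.5 h), 6991 and 8279 (2 h), 6203 and 4627 (6 h), and 5469 and 4293 (12 h). The root arrays of 0.5, 2 and 6 h lay above those of 0 h, and those of 12 h overlapped them. The log2 differences from 0 h in root were 1.03, 1.16, 0.66 and 0.51, and none was called (lowest adjusted p = 0.147). At 0.5 h the root difference was 0.76 without the raised arrays (adjusted p = 0.457), and the leaf difference was −0.50. The root difference at 2 h does not use the raised 0.5 h arrays. It stayed at 1.16 without them and was then called, with a changed estimate of the spread. In leaf NCED3 read 7632 and 5126 (0 h) and 6198 and 6740 (12 h), and its differences were 0.14, 0.19, 0.09 and 0.05 at 0.5 h, 2 h, 6 h and 12 h. Where root NCED3 stood highest, at 2 h, rab21 in root stood at 61.3% of the array maximum, and at 12 h at 81.3%. The constitutive control ubi of the study was not found under its identifier and was not analysed here.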

How the data were processed

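The deposited values were intensities on a linear scale. Cy3-labelled RNA samples were hybridised to NimbleGen 3′-tiling arrays, and the authors combined the probes for a gene with RMA, whose version and set of arrays normalized together are not given in the sources used here. The number of probe pairs was read from a deposited table of 1 array (unit other). A second table holding the same intensities was not used. Log2 of the deposited intensities was used as it stood, and 6 control features were left out. All 20 arrays entered a single limma 3.58.1 model (lmFit, eBayes, R 4.3.3) with a term for each of the 10 groups, which left 10 residual degrees of freedom beside a prior of 3.43. P-values were adjusted by Benjamini-Hochberg over 27,609 features within each of 26 comparisons. Calls needed both an adjusted p below 0.05 and a log2 difference above 1 or below −1, the thresholds of the study's methods. Intervals are 95% intervals from the same fit, unadjusted. The number of arrays limits the precision. The replicates are labelled as biological, and nothing says whether they share plants or days. The procedure was tested on simulated data with noise drawn independently for each array, so the test does not cover deviations shared between arrays. The members and lists were chosen with earlier results of these data known. The fit was also run after quantile normalization (over all arrays, or by tissue), after centring arrays on medians, without the dimmest 25% of features, with a robust trended prior, with replicate number as a block, and with both raised 0.5 h arrays left out, a single tissue, and each array left out. The genes named were the markers, those the study names for the tissue check, the 2 features most like each marker by Pearson correlation over 20 arrays, and listed genes found by identifier. No sequence of the genes or probes was used here.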

Additional observations from a re-analysis of the deposited data

How the results depend on the processing

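The fit was repeated under 9 settings and with each of the 20 arrays left out. For the markers, 383 of 392 values under the settings and 1012 of 1040 with an array left out kept their direction and their side of the threshold. In most of the 1040 fits the comparison did not use the left-out array, so its difference could not change and only its adjusted p could. The share kept there thus says little about how far a difference rests on 1 array. With 2 arrays in each group, only large differences can pass. The replicate block changed no call. The replicate numbers carry no stated batch or shared plant. Deviations of equally numbered arrays correlated at over 0.1 in 38 of 45 pairs of groups (median 0.308, range −0.164 to 0.72), so equal numbers deviated together in most pairs but not in all, and the block was kept as an alternative. With it, 1609 features were called higher in root at 2 h against 0.5 h, in place of 1139, and the called step of rab21 in root was 1.70 (adjusted p = 0.00538).

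Calls lost with only the 10 leaf arrays were those of rab21 in leaf at 2 h (log2 difference from 0 h 1.24) and of dip1 in leaf at 6 h (1.18) and 12 h (1.17), whose values stay the same while fewer arrays estimate the spread. Differences that changed sign were never called. With the raised 0.5 h arrays left out, rab21 in leaf at 0.5 h against 0 h was −0.059 and dip1 in root at 2 h against 0.5 h was −0.15. With arrays centred on their medians that dip1 step was −0.028, and root minus leaf of rab21 at 0.5 h was −0.069. Dip1 in leaf at 12 h against 6 h was 0.026 and 0.025 with quantile normalization of all arrays and within each tissue. For NCED3 in leaf, 0.5 h against 0 h was −0.50 without the raised arrays. The cause of these changes was not tested.

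Leaving out single arrays gave the following ranges of the log2 difference. Among called differences it was 1.41 to 1.99 for rab21 in root at 2 h against 0.5 h, 1.04 to 1.43 for rab21 in leaf at 2 h against 0 h, and 0.93 to 1.43 at 6 h and 0.92 to 1.41 at 12 h against 0 h for dip1 in leaf. Among differences never called, it crossed 0 for rab21 in leaf at 0.5 h against 0 h (−0.059 to 0.59) and in root at 12 h against 6 h (−0.047 to 0.15). Root minus leaf of rab21 was −0.26 to 0.38 at 0.5 h and −0.14 to 0.064 at 12 h, and its interaction was −0.047 to 0.60 for the first step and −0.015 to 0.37 for the change at 12 h. For dip1 it was −0.026 to 0.66 in leaf at 0.5 h against 0 h, −0.070 to 0.038 in leaf at 12 h against 6 h, −0.040 to 0.52 in root at 0.5 h against 0 h, −0.15 to 0.41 in root at 2 h against 0.5 h, and −0.18 to 0.041 in root at 6 h against 2 h. Root minus leaf of dip1 at 2 h was −0.013 to 0.21, and its interaction for the first step −0.41 to 0.27. For NCED3 in leaf against 0 h it was −0.50 to 0.78, −0.096 to 0.48, −0.20 to 0.38 and −0.24 to 0.33 at 0.5 h, 2 h, 6 h and 12 h.

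With the 99th percentile of features as the upper end, the distance was −0.082 for dip1 in root and 0.62 in leaf at 0 h, and −0.78 for rab21 in root and −0.76 in leaf at 12 h, where a negative value lies above that percentile.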
